A study of Mus musculus with 6 samples.

Results

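Transcripts of ultraconserved regions were measured on both strands with probes of a mouse LncRNA array, in heart, whole blood and plasma. The members are all non-control probes whose name is uc., a region number and a + or - sign. Of the 59729 probes, 962 met this rule. They were 481 probes of the + strand and 481 of the - strand, so that each of the 481 regions had 1 probe on either strand. Every member had 1 spot on an array.

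Ultraconserved regions are stretches of DNA that are identical in human, rat and mouse. Many lie near genes of development, and others overlap exons of genes for RNA-binding and splicing proteins, where an alternative exon can bring in an early stop codon. RNA from either strand of such regions has been described as a class of LncRNAs.

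Male C57BL/6J mice received isoproterenol, an agonist of β-adrenergic receptors, at 40 mg/kg per day for 1 week as a model of HF, and control mice received saline. The 6 arrays held heart, whole blood and plasma of HF and of control mice, 1 array for each of the 6 conditions, each with the mixed RNA of 5 mice. Plasma was passed through a filter before extraction, and whole blood was collected after removal of the eyeball. There was thus no replicate, and all differences below are between single arrays, with no test. The error given with a difference (± on the log2 scale) covers the spots within the 2 arrays, and does not cover the mice or the preparation of RNA.

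The study made PCR primers for 2 members, the - member at chr17:52604753-52604970 and the + member at chr11:31833618-31833847 (mouse build mm9). They are called the primer member of chromosome 17 and of chromosome 11 here, and their probe numbers stand in the plot of levels by array. The primers are shown because they are the sequences in hand that mark these transcripts, and the probe sequences were not used here. Each primer has 24 bases. Those of the chromosome 17 member hold 10 and 9 G or C bases, and those of the chromosome 11 member 11 and 9.
chromosome 17 member, sense primer: attagttgctgaactcagagaagg
chromosome 17 member, anti-sense primer: tgcttgctaatgctttattgtctc
chromosome 11 member, sense primer: cactgacgggatatctctttatgc
chromosome 11 member, anti-sense primer: aaatgtatgcagagcactgaaatg

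A level is the log2 of the background-subtracted signal after quantile normalization over the 6 arrays. A member was detected where its spot was well above background and was not marked as an outlier spot. Of 1200 spots of 20 negative control probes, 0.5% to 4.33% were called well above background on 5 arrays, and 12.4% on the HF plasma array. The HF plasma array also had 2 of the 20 negative probes detected, and of its 149 detected members only 65 (43.6%) were brighter than the brightest negative probe, at 7.41. In control plasma 136 of 164 (82.9%) were, and on the other arrays all were. Both heart arrays, HF whole blood and HF plasma were scanned on the same day and the 2 control blood arrays on another, so in whole blood and plasma the scan and HF cannot be told apart. As a check of tissue, 14 of 14 probes of cardiomyocyte mRNAs (6 genes, 9 of the probes for Tnnt2) were detected on both heart arrays, with mean levels of 12.74 in control and 13.75 in HF. On blood arrays 2 of the 14 were detected with whole blood of control mice (mean level 5.0), all 14 with that of HF mice (10.96), 6 of them with plasma of control mice (4.87) and 5 with that of HF mice (5.44). These means include probes that were not detected. The Myh6 probe ran against this check, at 10.88 (control) and 10.68 (HF) in heart but 14.36 to 14.71 on the blood arrays. The 4 probes of erythroid mRNAs had mean levels of 15.35 (control) and 14.05 (HF) in whole blood. In plasma these were 15.31 (control) and 6.80 (HF), with 2 of the 4 detected in HF. For 3 neutrophil probes the means were 6.64 (control) and 12.21 (HF) in whole blood and 6.93 and 9.77 in plasma, and for 3 fibroblast probes 5.84 and 10.12 in whole blood and 6.92 and 4.33 in plasma. Among the fibroblast probes that of Dcn was brighter in whole blood (10.60 in control, 11.63 in HF) than in heart (9.93 and 10.41). Platelet and lymphocyte probes, 2 of each, were detected on all 6 arrays. The platelet means (control, then HF) were 8.53 and 6.86 in heart, 10.57 and 9.75 in whole blood, and 10.94 and 6.57 in plasma. The lymphocyte means were 6.37 and 7.21 in heart, 9.88 and 7.93 in whole blood, and 9.76 and 7.80 in plasma. The part of these shifts in the results for whole blood and plasma was not tested.

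On each array most members gave no signal above background. On the control heart array 218 members were detected (22.7%), against 47.3% of all probes, and on the HF heart array 109 (11.3%), against 35.1%. In whole blood 126 (13.1%; 25.0% of all probes) were detected in control and 148 (15.4%; 29.8%) in HF. In plasma 164 (17.0%; 33.5%) were detected in control and 149 (15.5%; 29.0%) in HF. The share of members was thus below that of all probes on each array, and it was also below that of the 5365 lincRNA probes named with a strand, of which 19.5% to 32.9% were detected. In heart and whole blood, RNA of many cells was measured together. There, fewer cells with a transcript and less of it per cell cannot be told apart.

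**Figure D1:**
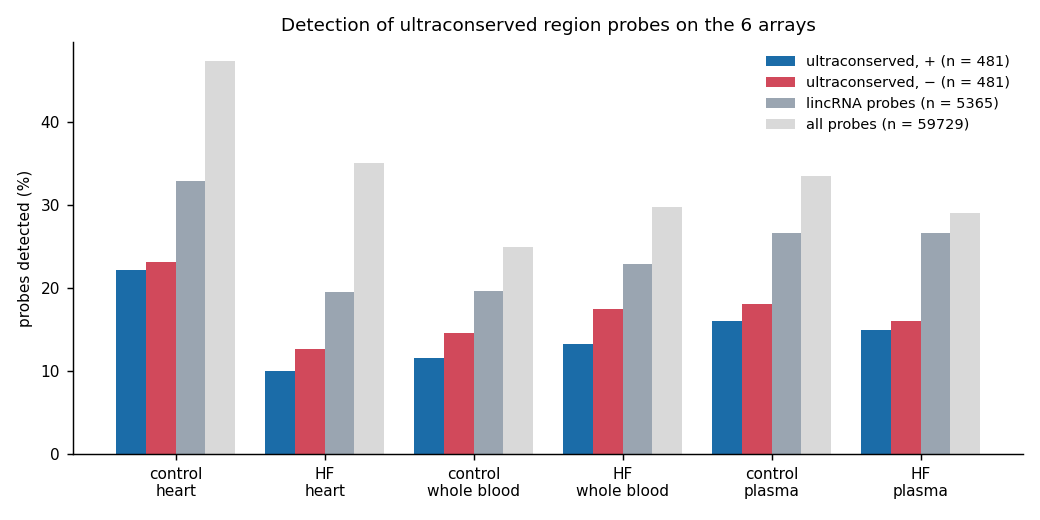
Share of probes detected (%, vertical axis) on each of the 6 arrays, for members on the + strand, members on the - strand, lincRNA probes named with a strand, and all probes; each bar is 1 array. Members of either strand lie below both other sets on all 6 arrays, and the control heart array has the highest share in every set.

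Members that were detected were also dimmer than other detected probes. Their median level was 5.07 in control heart against 6.05 over all detected probes, and 6.32 against 6.95 in HF heart. In whole blood the medians were 7.41 against 7.80 in control and 6.96 against 7.47 in HF, and in plasma 6.70 against 6.98 and 7.01 against 7.46. The gap was thus widest in control heart, where the lowest detected level of any probe, 3.56, was also the lowest of the 6 arrays.

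The - strand was detected more often than the + strand on every array. In control heart 111 members of the - strand and 107 of the + strand were detected, and in HF heart 61 and 48. With whole blood the counts were 70 and 56 for control mice and 84 and 64 for HF mice, and with plasma 87 and 77 for control and 77 and 72 for HF. Among lincRNA probes the - strand led on 3 of the 6 arrays, both heart arrays and HF plasma. The sign in a name is not always the strand of the mouse genome: of the 145 members for which the study's tables of changed LncRNAs give a location (134 regions, mouse build mm9), 88 had the sign of their mm9 strand and 57 the opposite sign. These locations span 199 to 779 bases, with a median of 251. Since they come from tables of transcripts that differed on these arrays, they say nothing of members that did not.

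Across arrays, 620 of the 962 members (64.4%) were detected nowhere, 138 on 1 array and 42 (4.37%) on all 6, against 12.6% of all probes on all 6. The other 162 members were detected on 2 to 5 arrays. On both heart arrays and on no blood array, 25 members (2.60%) were detected, against 7.36% of all probes. The brightest of them was uc.129+, at 8.31 in control heart and 8.66 in HF heart. The next were uc.193- at 8.47 and 8.34 and uc.419-, which is sense to Srsf1, at 8.65 and 7.95. For blood the corresponding counts were small. On both plasma arrays and nowhere else, 4 members (0.416%) were detected, against 0.624% of all probes. The brightest were uc.275- (5.31 in control and 5.72 in HF), uc.346+ (4.81 and 6.09) and uc.2- (4.79 and 6.09). All 3 were below the brightest negative probe of HF plasma. Only uc.358- (0.104% of members, against 0.0368% of all probes) was detected on both whole blood arrays and nowhere else, at 6.43 and 6.66.

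The 5 members with the highest mean level among the 42 were all of the - strand, namely uc.340-, uc.371-, uc.465-, uc.360- and uc.18-. The level of uc.340- was 12.02 and 10.24 in heart (control, then HF), 14.31 and 12.73 in whole blood, and 14.36 and 14.93 in plasma. It was thus higher on each blood array than on either heart array. In the same order of arrays, uc.371- was at 11.08, 10.12, 12.36, 12.66, 12.31 and 13.23, and uc.465- at 10.43, 9.26, 12.57, 12.00, 12.13 and 14.01. Both were highest in HF plasma and lowest in HF heart. The levels of uc.360- were 9.10, 8.06, 11.52, 10.05, 11.35 and 13.98, and those of uc.18- 8.86, 7.67, 10.45, 9.53, 10.40 and 10.98. All 5 thus had their lowest level in HF heart and their highest in HF plasma. Probes differ in how they bind, so their brightness does not order transcripts by amount. The brightest member on both heart arrays and in HF whole blood was uc.84-, at 12.85, 12.33 and 14.36. In HF plasma its spot, at 14.93, was marked as an outlier, and so was that of uc.162- at 14.13. Neither counted as detected there.

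Detection was narrower in HF heart than in control heart. Of the 218 members detected in control heart, 103 (47.2%) were detected in HF heart, and these were 94.5% of the 109 detected in HF heart. Over all probes the same shares were 71.1% and 95.8%. The members of control heart that were missing from HF heart were dim, with a median level of 4.28 in control heart against 6.87 for the 103 detected on both. The lowest detected level of any probe was 4.72 in HF heart against 3.56 in control heart. A member at this median would thus not have been detected in HF heart even with its level unchanged. For 1 of the missing members the level bounded a difference of at least 2-fold. This was uc.324-, sense to the phosphoesterase gene Mpped2, which was at 5.99 in control and not well above background in HF (3.78), at least 2.41-fold lower. The next were uc.143+ (5.70 in control, at least 1.98-fold) and uc.345- (5.68, at least 1.95-fold). In whole blood the arrays shared 90 members, 71.4% of those of control and 60.8% of those of HF, and in plasma 91, 55.5% and 61.1%. Over all probes these shares were 80.0% and 67.1% in whole blood and 61.9% and 71.4% in plasma. Control whole blood and control plasma shared 111 members, 88.1% of those of whole blood and 67.7% of those of plasma, where the shares over all probes were 94.3% and 70.4%. Each of these shares was thus lower for the members than for all probes.

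In heart, levels of ultraconserved regions were lower in HF more often than higher. Of the 103 members detected on both arrays, 7 (6.80%) were at least 2-fold higher and 19 (18.4%) at least 2-fold lower, where 13.9% and 12.9% of all probes were. Their median log2 difference was -0.37, against 0.02 over all probes and -0.48 over lincRNA probes. The share of lincRNA probes was 7.75% higher and 25.6% lower. Among the 42 members detected on all 6 arrays, 1 was higher in HF heart and 15 were lower. The same split was not taken for all probes detected on all 6 arrays. Whether it is particular to the members thus cannot be told.

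Higher in HF heart were a few members that were dim or not detected in control heart. The largest difference was that of uc.459- (chrX:154357613-154357867 in mm9, + strand), antisense to Cnksr2, which encodes a scaffold protein of Ras signalling. Its level was 5.11 in control heart and 8.37 in HF heart, 9.59-fold higher (log2 3.26 ± 0.23). It was detected on 1 of the 4 blood arrays, HF whole blood, at 5.32, and uc.459+ was not detected anywhere. The next was uc.299+, at 4.92 and 7.06 (log2 2.14 ± 0.24). For uc.256+ the levels were 4.90 and 6.17 (log2 1.27 ± 0.25). With normexp, a model-based background correction, the log2 differences of these 3 were 1.93, 0.86 and 0.46, so that only uc.459- was still above 2-fold.

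Of the 6 members detected in HF heart alone of the heart arrays, all differed at least 2-fold by their bound. The lowest detected level of any probe was 4.72 in HF heart and 3.56 in control heart. The gap between these levels exceeds 2-fold, so that all 6 passed was largely fixed by these limits. The brightest of the 6 was uc.267- (chr2:36014981-36015183 in mm9, - strand), antisense to Mrrf, which encodes the ribosome recycling factor of mitochondria. It was at 8.72 in HF heart, at least 35.7-fold above control heart, and on none of the blood arrays was it detected. Its opposite strand, uc.267+, sense to Mrrf, was at 6.50 and 6.93 in control and HF heart, a difference of under 2-fold. In Foxp2, which encodes a forkhead transcription factor, 2 regions were detected in HF heart and not in control heart, on opposite strands. The sense member was uc.224+ (chr6:15143366-15143660 in mm9) at 6.82, at least 9.55-fold higher, and the antisense member was uc.226- (chr6:15273150-15273353) at 6.33, at least 6.84-fold higher. Neither was detected on any other array. The other 3 were uc.83- (5.49, at least 3.82-fold), uc.294+ (5.13, at least 2.75-fold) and uc.183- (4.95, at least 2.62-fold), the last sense to Fbxw11, which encodes an F-box protein.

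The largest falls below control among members detected on both heart arrays were smaller. The level of uc.162- was 11.51 in control and 9.35 in HF heart, 4.46-fold lower (log2 -2.16 ± 0.20). For uc.77+ it was 7.96 and 5.98 (log2 -1.98 ± 0.23), and for uc.340- 12.02 and 10.24 (log2 -1.78 ± 0.20). With normexp the difference of uc.77+ was -1.24, and of the 103 members 1 was higher and 6 were lower in HF heart. Over all probes 5.1% were then higher and 6.47% lower, so the share of lower members was not above that of all probes.

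**Figure D2:**
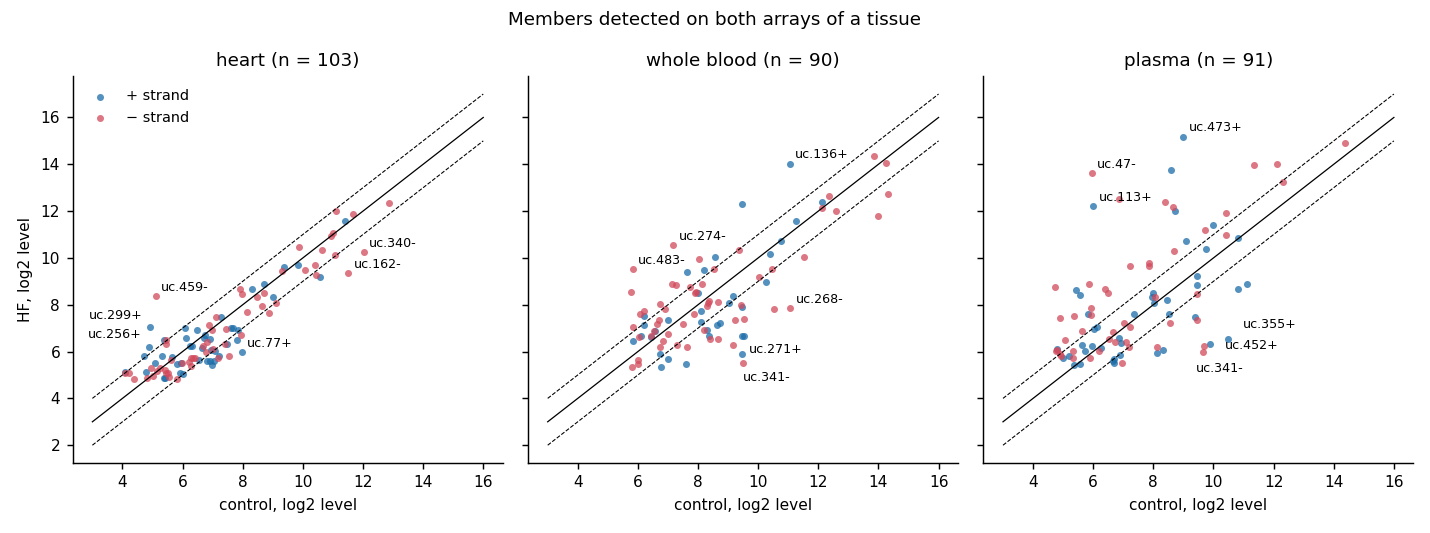
Log2 level in HF (vertical axis) against control (horizontal axis) for the members detected on both arrays of a tissue, + strand in blue and - strand in red; the solid line marks equal levels and the dashed lines a 2-fold difference, and the 3 largest differences in each direction are named. In heart 77 of 103 points lie within the dashed lines, with uc.459- and uc.299+ the farthest above, and plasma has the widest scatter, with uc.47-, uc.113+ and uc.473+ far above the line.

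In whole blood 17 of 90 members (18.9%) were at least 2-fold higher in HF and 27 (30.0%) lower, where 21.4% and 26.8% of all probes were. The median difference was -0.24, against -0.13 over all probes and -0.23 over lincRNA probes. Both shares of the members were thus within 4 points of those of all probes. The highest rise over control was that of uc.483-, at 5.83 in control and 9.51 in HF whole blood, 12.8-fold higher (log2 3.68 ± 0.35). It was 5.50 and 5.09 in control and HF heart, and 5.93 and 7.55 in control and HF plasma. The next were uc.274- (7.18 and 10.55, log2 3.37 ± 0.24) and uc.136+ (11.06 and 14.03, log2 2.97 ± 0.20), the last at 1.87 when arrays were scaled to the 75th percentile instead. The level of uc.136+ was lower in HF plasma (8.67) than in control plasma (10.83).

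The largest fall in whole blood was that of uc.341- (chr15:102801194-102801507 in mm9, - strand), from 9.49 in control to 5.53 in HF, 15.6-fold (log2 -3.96 ± 0.33). It was at 9.65 in control plasma and 5.96 in HF plasma (log2 -3.69 ± 0.28), and at 4.94 and 5.29 in control and HF heart. Both control blood arrays were thus about 4 log2 units above the other 4 arrays. The other 2 were uc.271+ (9.45 and 5.88, log2 -3.57 ± 0.27) and uc.268- (11.07 and 7.84, log2 -3.23 ± 0.21). The - strand member uc.268- was also at 10.22 in control plasma and not detected in HF plasma, while its levels in control and HF heart were 10.94 and 10.92.

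Over all probes, 2984 were detected in control whole blood alone and 5841 in HF whole blood alone. Of the members, 36 were detected in control alone, 25 of them at least 2-fold by the bound. In HF alone 58 were, 13 of them at least 2-fold. The largest bound was that of uc.452+, at 10.01 in control and not detected in HF, at least 28.2-fold lower. The second bound was that of the primer member of chromosome 11, at 9.57 in control, at least 20.8-fold lower, and the third that of uc.335+, at 9.0, at least 14.0-fold. The corresponding members of HF whole blood were uc.272+ (8.05, at least 4.83-fold), uc.118- (7.90, at least 4.37-fold) and uc.155- (7.84, at least 4.17-fold).

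The HF whole blood array also held cardiomyocyte mRNAs, as given above, so members found in heart were looked for there. On both heart arrays and on neither control blood array, 32 members were detected. Of these, 6 (18.8%) appeared with whole blood of HF mice, namely uc.174+, uc.203+, uc.408-, uc.436-, uc.459- and uc.472-, and 2 (6.25%) with their plasma. Of the 6460 probes with the same pattern on the whole array, 23.1% and 17.3% did so.

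Plasma had the largest differences, and most were upward in HF. Of 91 members, 35 (38.5%) were higher in HF by at least 2-fold and 17 (18.7%) lower, where 32.1% and 25.6% of all probes were. The median difference was 0.57, against 0.21 over all probes and 0.55 over lincRNA probes, of which 39.0% were higher and 16.8% lower. The members thus lay closer to the lincRNAs than to all probes. The strands were unequal: 25 of 48 members (52.1%) of the - strand were higher and 10 of 43 (23.3%) of the + strand, with medians of 1.14 and 0.08. For lincRNA probes the shares were 43.4% of the - strand and 34.8% of the + strand.

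Among members detected on both arrays of a tissue, 5 exceeded control by more than 5 log2 units in HF plasma. None of those in heart or whole blood did. The largest was uc.47- (chr12:26576693-26576919 in mm9, + strand), at 5.95 in control plasma and 13.61 in HF plasma, 202-fold higher (log2 7.66 ± 0.25). Elsewhere it was at 4.12 in control heart and 6.24 in whole blood of HF mice, and it was not detected on the other 2 arrays. The second was uc.113+ (chr17:52200482-52200728, + strand) at 6.0 and 12.21, 73.9-fold higher (log2 6.21 ± 0.25). It was at 5.09 in control heart and 5.53 in HF whole blood, and was not detected on the other 2 arrays. The third was uc.473+, at 8.99 and 15.17, 72.4-fold higher (log2 6.18 ± 0.20). It was detected on all 6 arrays, at 5.94 and 5.52 in heart and 9.15 and 8.36 in whole blood, and was the brightest member of HF plasma.

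The fourth was the primer member of chromosome 17, whose primers are printed above. Its plasma levels were 6.84 for control and 12.52 for HF, 51.0-fold higher (log2 5.67 ± 0.22), and its whole blood levels 7.86 and 7.62. Of the heart arrays it was detected on that of control, at 5.24, and not on that of HF. The + probe of the same region was not detected on any array, at 2.54 to 2.65. This region lies 404.0 kb from uc.113 on chromosome 17. Between them in number, uc.114 was not detected on either strand of any array, nor was uc.113-. The fifth was uc.86+, at 8.59 in control and 13.74 in HF plasma (log2 5.15 ± 0.21), and it was lower in HF heart (5.81) than in control heart (7.21).

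**Figure D3:**
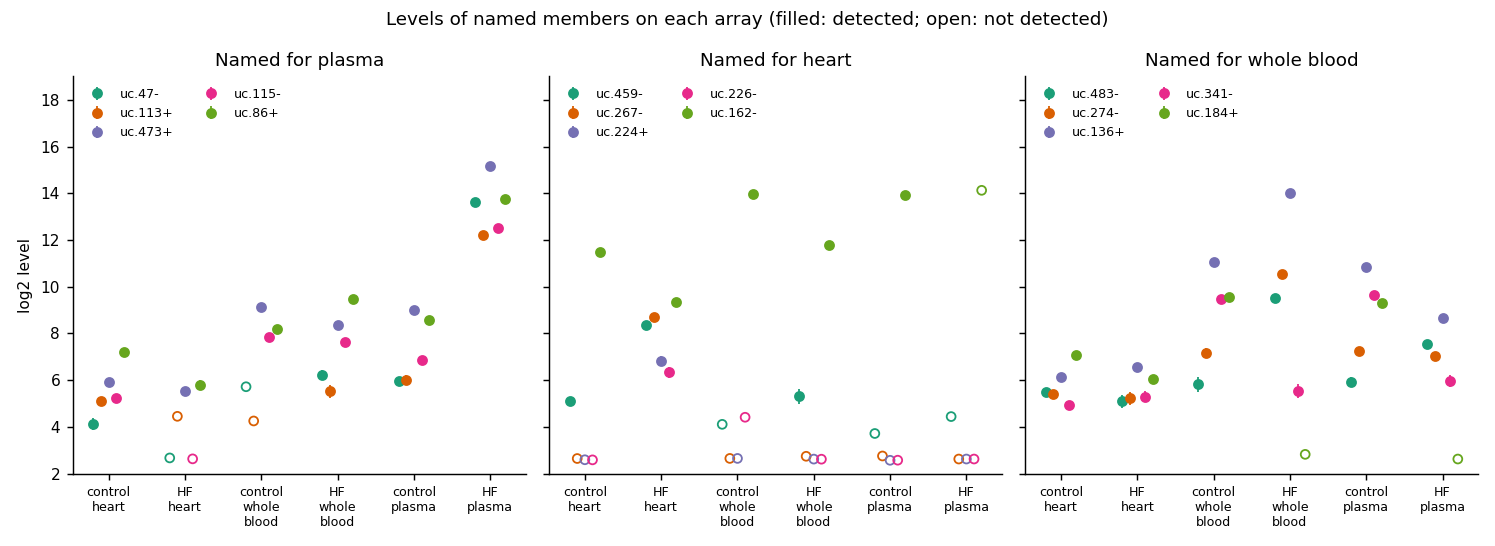
Log2 level (vertical axis) on each of the 6 arrays of 15 members, in 3 panels by the tissue for which they are named; filled points are detected, with bars for the error within an array, and open points are not. The 5 members of the plasma panel reach 12.21 to 15.17 in HF plasma and stay below 10 elsewhere, uc.267-, uc.224+ and uc.226- are detected in HF heart only, and uc.162- in HF plasma is an outlier spot at 14.13.

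The 3 largest falls in plasma were those of uc.355+ (10.49 in control and 6.54 in HF, log2 -3.95 ± 0.25), uc.341- given above, and uc.452+ (9.90 and 6.32, log2 -3.58 ± 0.26). Over all probes, 7625 were detected in control plasma alone and 4962 in HF plasma alone. Of the members, 73 were detected in control plasma alone, 33 of them at least 2-fold by the bound. The largest bounds were those of uc.425+ (12.66, at least 156-fold), uc.256+ (11.99, at least 98.1-fold) and uc.268- (10.22, at least 28.8-fold). These 3 were also bright in control whole blood, uc.256+ at 12.13, uc.268- at 11.07 and uc.425+ at 13.50, the last an outlier spot. In HF whole blood they were at 12.37, 7.84 and 12.43 in the same order. In HF plasma alone 58 were detected, 45 of them at least 2-fold. Many of the 45 lay below the brightest negative probe of HF plasma (7.41), from uc.94+ at 7.34 down to uc.398- at 5.74. The largest bounds were those of uc.186- (11.94, at least 158-fold), uc.244- (11.58, at least 123-fold) and uc.191- (11.17, at least 93.0-fold), all of the - strand and all above the brightest negative probe.

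The primer member of chromosome 11 differed in the other direction. Its level was 7.07 in heart, 9.57 in whole blood and 9.32 in plasma of control mice. Of the HF arrays it was well above background only on that of heart, at 6.04, with 2.83 for whole blood and 2.62 for plasma. Against control this bounded a difference of at least 15.4-fold in plasma, beside the 20.8-fold of whole blood given above. The - probe of the same region was detected in control heart alone, at 4.54.

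Across tissues, 28 of the 78 members detected on both arrays of 2 or more tissues differed at least 2-fold in 2 or more (35.9%, against 32.0% of all probes detected in this way). In 12 of them the direction was the same in each tissue, and in 16 it was not, which is 57.1% of the 28 against 48.9% of the 4054 such probes on the whole array. Of the 42 members detected on all arrays, 6 (14.3%) differed in all 3 tissues, against 7.27% of all probes. They were uc.360-, uc.363-, uc.432+, uc.448-, uc.77+ and uc.86+. The first 5 of these were lower in HF heart and HF whole blood and higher in HF plasma, and uc.86+ was lower in HF heart and higher in both blood samples. These calls depended on the background correction and the scaling. With normexp 17 members differed in 2 or more tissues, 10 of them in opposite directions, and each of the 6 lost a call, 5 of them in heart (log2 -0.72 to -0.92) and uc.77+ in whole blood (-0.94). In place of the 6, only uc.465- then differed in all 3. Under 75th percentile scaling uc.360- lost its call in heart (-0.82). The 3 comparisons use different arrays and share none.

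The + and - probes of the same number were then paired. Most regions had neither strand detected, and where 1 was, it was mostly alone. In control heart both strands were detected for 35 of the 481 regions, the + strand alone for 72 and the - strand alone for 76. In HF heart the counts were 10, 38 and 51. With whole blood they were 11, 45 and 59 for control mice, and 6, 58 and 78 for HF mice. With plasma they were 13, 64 and 74, and 10, 62 and 67. Both strands were thus detected for 4.23% of the regions with a strand detected in HF whole blood and for up to 19.1% in control heart. For pairs of lincRNA probes named with + and - the share was 12.2% to 22.3%, above that of the members on each array. This share rises with the detection of single probes, and lincRNA probes were detected more often on each array. The order of the shares thus does not show a difference in how strands pair.

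**Figure D4:**
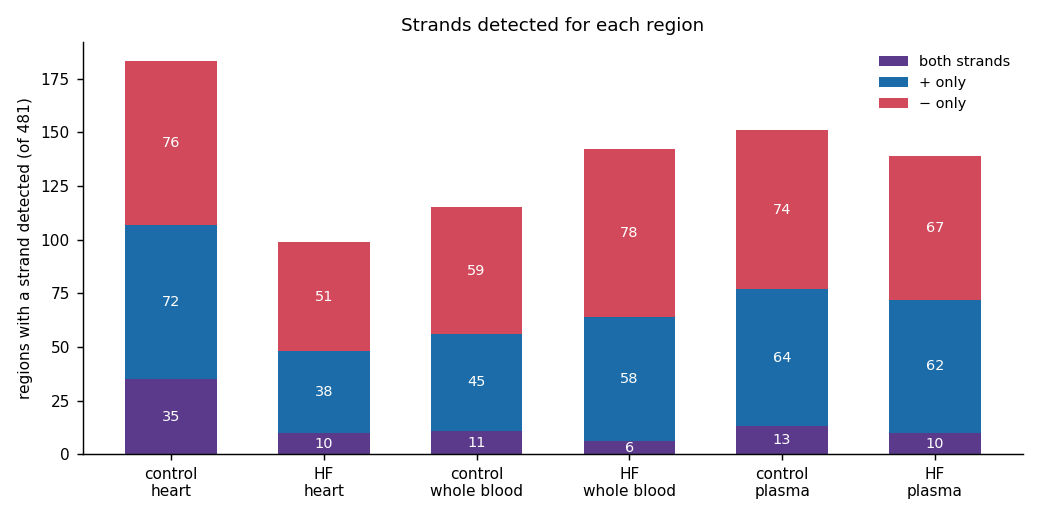
Number of regions (vertical axis, of 481) on each array with both strands detected, the + strand alone or the - strand alone; each bar is 1 array. Regions with 1 strand make up most of each bar, and both strands are most frequent in control heart, with 35 regions.

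Detection of 1 strand went with that of the other in heart more than in blood. In control heart the + strand was detected for 31.5% of regions whose - strand was detected and for 19.5% of the others, and in HF heart for 16.4% and 9.05%. With whole blood the shares were 15.7% and 10.9% for control mice but 7.14% and 14.6% for HF mice. With plasma they were 14.9% and 16.2% for control and 13.0% and 15.3% for HF. On the last 3 of these arrays the + strand was thus detected less often where the - strand was. For lincRNA pairs the share was higher where the - strand was detected on all 6 arrays, from 20.3% against 17.5% in HF heart to 36.6% against 23.7% in control plasma.

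Over the 6 arrays 268 regions had a strand detected. Of these 89 had the + strand alone, 105 the - strand alone and 74 both, and 213 regions had neither. In 53 of the 74 both strands were detected on the same array at least once, and in 21 they never were. On all 6 arrays 12 regions had the + strand detected and never the - strand, and 16 had the reverse. No region changed strand between tissues throughout: in 0 regions was the + strand alone detected on both arrays of 1 tissue and the - strand alone on both arrays of another. Between control and HF of the same tissue, the strand detected alone differed for 1 region in heart (uc.83, from + to -), 3 in whole blood (uc.233 from + to -, uc.319 and uc.425 from - to +) and 4 in plasma (uc.301 and uc.308 from + to -, uc.468 and uc.470 from - to +). For uc.425 and uc.308 this depends on 1 spot each. The spot of uc.425+ in control whole blood, at 13.50, and that of uc.308- in control plasma, at 14.29, were marked as outliers and did not count as detected.

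Both strands were detected on all 6 arrays for 3 regions, uc.293, uc.299 and uc.340. The strand difference, log2 of + over -, mixes the amounts of RNA with the binding of 2 probes, so that its move between arrays was taken. For uc.299+ the levels (control, then HF) were 4.92 and 7.06 in heart, 8.38 and 6.65 in whole blood, and 7.35 and 7.61 in plasma. For uc.299- they were 5.03, 4.95, 5.78, 8.53, 6.96 and 5.51 in the same order. From control to HF the strand difference of uc.299 thus moved from -0.10 to 2.11 in heart (2.21 ± 0.44), from 2.60 to -1.89 in whole blood (-4.49 ± 0.43) and from 0.39 to 2.10 in plasma (1.71 ± 0.41). In whole blood the sign turned, with the + strand lower and the - strand higher in HF.

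In plasma the largest move was that of uc.293. Its + strand was at 6.88 in control and 5.84 in HF plasma and its - strand at 8.67 and 12.19, so that the strand difference moved from -1.79 to -6.35 (-4.56 ± 0.37). In heart it moved by 0.40 ± 0.37 and in whole blood by 1.45 ± 0.38. The strand difference of uc.340 moved by 1.27 ± 0.40 in heart, 0.76 ± 0.38 in whole blood and -1.62 ± 0.39 in plasma. In all, 3 of 9 pairs with both strands detected on both arrays moved at least 2-fold in heart, 2 of 3 in whole blood and 4 of 4 in plasma. Each of the 4 plasma pairs had a strand below the brightest negative probe of HF plasma, at 7.41. These strands were uc.293+ (5.84), uc.340+ (5.60), uc.258- (6.42) and uc.299- (5.51) in HF plasma. Their moves thus rest on signal in the range of negative probes, which the ± does not cover. The third in heart was uc.188 (1.02 ± 0.31), and the fourth in plasma was uc.258 (1.02 ± 0.32). The most negative move in heart was that of uc.154 (-0.87 ± 0.31).

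Between control tissues, 4 of 6 pairs moved at least 2-fold from heart to whole blood and 4 of 8 from heart to plasma, and 1 of 7 from whole blood to plasma. From heart to whole blood the strand difference of uc.299 moved by 2.70 ± 0.45 and that of uc.173 by 1.77 ± 0.36 toward the + strand. Those of uc.258 (-2.12 ± 0.38) and uc.300 (-1.99 ± 0.49) moved toward the - strand. From heart to plasma uc.300 moved by -1.44 ± 0.46, uc.258 by -1.21 ± 0.34, uc.340 by -1.08 ± 0.32 and uc.173 by 1.03 ± 0.38. From whole blood to plasma the 1 move of at least 2-fold was that of uc.299 (-2.21 ± 0.42). The labelling used random primers, and whether it kept the strand of the RNA was not tested.

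**Figure D5:**
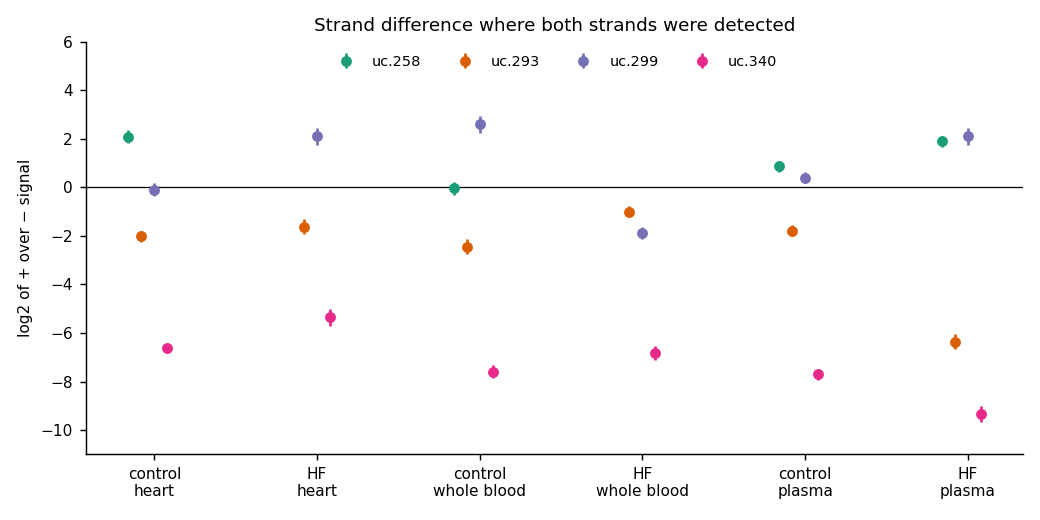
Strand difference (log2 of the + signal over the - signal, vertical axis) on each array for the 4 regions with both strands detected on 4 or more arrays, shown where both were; bars are the error within the array. The points of uc.299 lie at 2.60 for control and -1.89 for HF in whole blood, and that of uc.293 lies at -6.35 in HF plasma.

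For 19 regions the study's tables give a host gene, 18 genes in all, with 7 of the listed strands sense to the gene and 12 antisense. Many of these genes encode proteins that bind RNA or act in splicing. The tables list LncRNAs that differed on these arrays, so the listed strand is not independent of the levels. In control heart the sense strand was detected for 11 of the 19 regions and the antisense strand for 11, both for 6. In HF heart the sense strand was detected for 8, the antisense strand for 4 and both for 1. On the blood arrays 1 to 4 sense and 2 to 3 antisense strands were detected. Of the 12 regions listed for their antisense strand, the sense strand was detected for 6 in both heart samples. Of these sense strands the tables list only uc.203+, without a host gene. The antisense strand was detected for 10 of the 12 in control and for 3 in HF heart. Several of these antisense members were, in control heart, below 4.72, the lowest level at which any probe was detected in HF heart. The 6 sense strands were those of the same regions in both hearts.

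Among hosts that act on RNA, the sense strands of Srsf1, Qk and Matr3 were detected on both heart arrays. Srsf1 encodes an SR protein of splicing, and its sense member uc.419- was at 8.65 and 7.95 in control and HF heart and not detected in blood. The antisense member uc.419+ was at 4.87 in control heart, 8.29 in whole blood and 8.09 in plasma of control mice, and on no HF array was it detected. Qk encodes the RNA-binding protein quaking, and its sense member uc.203+ was at 9.0 and 8.33 in heart and 5.58 in HF whole blood. The antisense member uc.203- was detected in control heart alone, at 3.95. Matr3 encodes a protein of the nuclear matrix that binds RNA, and its sense member uc.174+ was at 7.67 and 7.03 in heart, 6.10 in whole blood of HF mice and 7.90 in their plasma, while uc.174- was at 4.18 in control heart alone. All 3 antisense members were thus detected in control heart and not in HF heart. The lowest level at which any probe was detected in HF heart was 4.72. In control heart uc.203- and uc.174- were below this, so an unchanged level would not have been detected in HF heart. For uc.419+ the bound was at least 1.11-fold. Whether these antisense transcripts were lower in HF heart thus cannot be told.

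Tra2a and Tra2b encode related splicing activators. For Tra2a the antisense member uc.208+ was at 5.42 and 4.88 in heart, and the sense member uc.208- at 3.66 in control heart alone. For Tra2b the sense member uc.138- was at 3.79 in control heart and at 5.37 and 7.50 in plasma of control and HF mice, and uc.138+ was not detected. Other members detected in control heart and on no other array were uc.376+ (3.86), sense to the splicing factor gene Prpf39, and uc.143+ (5.70), antisense to G3bp2, which encodes a stress granule protein.

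The remaining hosts have other roles. The sense member of the transcription factor gene Sp3, uc.101-, was at 7.17 in control and 5.71 in HF heart, and the antisense member uc.101+ at 3.63 in control heart and 6.78 in HF whole blood. For Zcchc7 the sense member uc.258+ was detected on all 6 arrays, at 6.53 and 5.63 in heart, 6.99 and 5.67 in whole blood, and 7.97 and 8.31 in plasma. Its antisense member uc.258- was at 4.45 in control heart, 7.03 in whole blood of control mice, and 7.10 and 6.42 in plasma of control and HF mice. For Mms22l, a gene of DNA repair, the antisense member uc.195+ was at 4.08 in control heart, 6.45 in whole blood of control mice, and 6.13 and 7.05 in plasma of control and HF mice, and uc.195- was not detected. The Elongator gene Elp4 had its sense member uc.327+ at 4.79 in control heart and, of HF mice, at 6.16 in whole blood and 5.91 in plasma. The homeobox gene Pbx3 had its antisense member uc.273- at 3.79 in control heart alone. The antisense strand of uc.224 in Foxp2, uc.224-, was at 5.54 in HF plasma alone. Foxp2, Mrrf, Cnksr2, Fbxw11 and Mpped2 are given above.

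The mRNAs of these genes were compared as far as the study's tables name their probes. Of 31 genes of splicing and RNA binding, 12 had a named probe, 21 probes in all. All 21 were detected in control heart, and 1 fewer in HF heart. With whole blood 17 (control) and 19 (HF) were detected, and with plasma 19 and 10. In heart 0 of 20 were at least 2-fold higher and 4 lower, in whole blood 2 of 15 higher and 3 lower, and in plasma 1 of 10 higher and 3 lower. Of the 18 host genes, 5 had a named probe, 8 probes in all, and of the 7 detected with both hearts 4 were 2-fold or more lower in HF and 0 higher.

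The Qk probe was at 13.30 in control and 12.19 in HF heart (log2 -1.11), and its sense ultraconserved member uc.203+ at 9.0 and 8.33. The Tra2b probe did not differ by 2-fold, at 10.68 and 10.66. For Sp3 the 2 probes disagreed, at 13.16 and 12.05 (log2 -1.11) for the brighter and 6.18 and 6.34 (log2 0.16) for the other. The 3 probes of G3bp2 disagreed as well, the brightest at 10.78 and 9.65 (log2 -1.13), the second at 6.51 and 6.75, and the third detected in control heart alone. Since these names come from tables of mRNAs that differed on these arrays, their counts do not describe all genes of the list.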

How the data were processed

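LncRNA and mRNA levels were measured on 6 one-colour Agilent arrays of mixed RNA, 1 for each condition taken from the labels. The deposited files hold an intensity for each spot, from which the authors' software, Agilent Feature Extraction 11.0.1.1, had subtracted the background, without normalization between arrays. The deposited matrix of the series holds the same intensity values, with 0 of 61194 spots that differ on each array. For comparisons the study's methods name quantile normalization, flags of presence on the arrays compared and a fold change of 2.0.

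Without control spots, log2 intensity was averaged per probe and quantile normalized across 59729 probes (Python 3.11.15, pandas 2.3.3, numpy 2.4.6). A probe was detected where most spots were well above background and no outlier flag applied. It counted as higher or lower if detected on both arrays and different by at least 2-fold. Where it was detected on 1 array, its level was set against the higher of its own level on the other array and the lowest detected level there ("at least"). On 2 arrays many spots lay at the lowest value, 659 members in control whole blood and 594 in HF plasma, and these have no order. The median error of a member's spot was 11.6% to 12.5% of its signal. The number of arrays limits the precision. The steps were tested on simulated arrays.

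Members named are those with primers (uc.115- on chromosome 17 and uc.184+ on chromosome 11), the brightest on all arrays, the 3 largest differences in each direction and tissue (also by bound), pairs whose strand difference moved most, tissue-specific members and regions with a host gene, 1 of which is not reported here. Named after their values were seen were uc.84-, uc.86+, uc.114, the 6 heart members found in HF whole blood, the members that differed in several tissues and the regions whose strand differed. The members and lists were chosen with earlier results of these data known. Alternatives were 75th percentile scaling, quantile normalization within a tissue, normexp background correction with an offset of 50 (limma 3.58.1 in R 4.3.3), a weaker detection flag, outlier spots kept, no detection filter, and thresholds of 1.5-fold and 4-fold. Locations and host genes were read from the parts of the study's tables held here, and mRNA names likewise.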

Additional observations from a re-analysis of the deposited data

Results flagged for a closer look

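For 16 members the difference between HF and control was at least 2-fold in opposite directions in 2 tissues. With 1 array per condition, whether these differences between tissues exceed chance was not tested. All values are log2 of HF over control. With normexp background correction, an alternative chosen after seeing the data for these counts, 10 of the 16 kept 2-fold differences in opposite directions. For uc.86+, uc.287-, uc.293-, uc.299+, uc.299- and uc.363- a difference fell below 2-fold, without a change of sign. Under 75th percentile scaling and with normalization within a tissue all 16 kept 2-fold differences in opposite directions.

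Lower in HF heart or whole blood and higher in HF plasma were 10 members. In this group uc.363- was at -1.10 in heart, -1.27 in whole blood and 3.98 in plasma. The value of uc.360- was -1.04 in heart, -1.47 in whole blood and 2.63 in plasma. For uc.432+ the values were -1.54, -1.29 and 1.43 in the same order, for uc.448- -1.74, -2.71 and 1.51, and for uc.77+ -1.98, -1.37 and 1.62. In heart and plasma, uc.293- was at -1.24 and 3.52 and uc.465- at -1.18 and 1.88. In whole blood and plasma, uc.310- was at -2.89 and 1.62, uc.38- at -1.44 and 1.46, and uc.415+ at -1.51 and 3.27.

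Higher in HF whole blood and lower in HF plasma were uc.136+ (2.97 and -2.15), uc.228+ (2.85 and -1.93), uc.287- (1.92 and -1.33) and uc.299- (2.75 and -1.45). The last 2 members differed from these. The value of uc.299+ was 2.14 in heart and -1.73 in whole blood, and that of uc.86+ was -1.40 in heart, 1.29 in whole blood and 5.15 in plasma.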

How the results depend on the processing

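No paired analysis was possible because each condition had 1 array and the labels give no replicate to pair. No difference of at least 2-fold of a named member changed sign under the alternatives run. With outlier spots kept and with quantile normalization within a tissue, every count stayed within 1.5 times of its value. With the weaker flag the members detected were 455, 268, 302, 361, 398 and 365 on the arrays of control and HF heart, control and HF whole blood, and control and HF plasma, and regions with both strands were 124, 50, 53, 65, 87 and 80. Members higher and lower in HF were then 19 and 37 in heart, 46 and 67 in whole blood, and 87 and 47 in plasma, and without a detection filter 25 and 61, 150 and 155, and 170 and 126. At 1.5-fold they were 14 and 38 in heart, and at 4-fold 2 and 1 in heart, where more were then higher than lower, 5 and 11 in whole blood, and 17 and 9 in plasma. With normexp background correction they were 1 and 6 of 103 in heart, where 5.1% and 6.47% of all probes were higher and lower. The share of lower members was then not above that of all probes. Among the members that differed, the share of higher went from 26.9% to 14.3%. Under 75th percentile scaling the median over all probes shifted to 0.20 in heart, -0.35 in whole blood and 0.09 in plasma, from 0.02, -0.13 and 0.21, and the median of members went to -0.30, -0.47 and 0.36.

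Pairs whose strand difference moved at least 2-fold between control and HF were 17 in heart, 13 in whole blood and 30 in plasma with the weaker flag, and 81, 244 and 228 without a filter. They were 1 in each tissue at 4-fold, 1 in heart and 2 in plasma under 75th percentile scaling, and 1 in heart and 1 in plasma with normexp. Between control tissues they were 22 (whole blood over heart), 31 (plasma over heart) and 10 (plasma over whole blood) with the weaker flag, and 230, 203 and 145 without a filter. At 4-fold they were 2 for whole blood over heart and 0 for plasma over heart, at 1.5-fold 4 for plasma over whole blood, and with normexp 1 for plasma over heart. The cause of these shifts was not tested.

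Of 104 differences of named members, 42 moved by more than their error under 75th percentile scaling, 64 with normexp and 6 with normalization within a tissue. Of the 74 that were at least 2-fold, 3, 21 and 1 then fell below it. Under 75th percentile scaling these were uc.360- (-0.82) and uc.465- (-0.85) in heart and uc.474- in whole blood, and the whole blood differences of uc.162- and uc.340- went to -3.34 and -2.99. With normexp they included uc.18- (-0.93), uc.271+ (-0.60) and the primer member of chromosome 11 (-0.58) in heart and uc.483- in plasma (0.96). Under 2-fold, signs turned beyond the error for uc.371- (0.30 to -0.85) and uc.256+ (0.24 to -0.82) in whole blood and uc.268- in heart (-0.02 to 0.33) under 75th percentile scaling, and for uc.274- in plasma (-0.19 to 0.06) with normexp. The members that differed in 2 or more tissues, recounted in ways chosen after seeing the data, were 30, 17 and 28 under 75th percentile scaling, with normexp and with normalization within a tissue, and 27, 16 and 27 of these were among the 28. With 1 array of mixed RNA per condition, no difference can be set against the spread between mice. In HF plasma the negative probes limit what counts as signal, and in whole blood and plasma the scan cannot be told apart from HF.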
